A study of Mus musculus with 18 samples.

Results

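The genes described here encode the CNC-bZIP transcription factors Nfe2l1, Nfe2l2 and Bach1, the small Maf proteins Maff, Mafg and Mafk with which they pair, and Keap1, the inhibitor of Nfe2l2. They were chosen by name, for their place in this network, by a rule that uses no measured value but with earlier results of these data known. They make up 7 of the 23420 genes of the count table. The libraries came from NIH-3T3 cells, an established line of mouse embryonic fibroblasts, either wild type (WT) or made deficient in Nrf1 by CRISPR/Cas9 (Nrf1-KO). The Nrf1 of the cell line's name is the gene Nfe2l1, not the gene with the symbol Nrf1, which encodes nuclear respiratory factor 1. Each line received DMSO, the solvent control, or 200 nM carfilzomib (CFZ), an irreversible inhibitor of the proteasome, for 6 h or 24 h, and all cells grew in DMEM with 10% fetal bovine serum. This gave 6 groups of 3 biological replicates. The length of the DMSO treatment, the edited site and whether the Nrf1-KO line is a single clone are not given in the sources used. An effect of the lost factor and any other difference between the lines therefore cannot be told apart. The same DMSO libraries of a line served as control for 6 h and 24 h. Effects of CFZ and of time in culture therefore cannot be fully told apart, nor can they from 6 h to 24 h.

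CNC factors bind DNA as a dimer with a small Maf, at antioxidant response elements (ARE) and related sites. Nfe2l1 sits in the membrane of the endoplasmic reticulum, is extracted and degraded when the proteasome works, and is cut and moves to the nucleus when the proteasome is inhibited, where it drives proteasome subunit genes. Nfe2l2 is held back by Keap1, which hands it to a Cul3 ubiquitin ligase and lets it build up when its reactive cysteines are modified. Bach1 competes for the same sites as a heme-sensitive repressor. The small Mafs have no activation domain of their own, so a dimer of small Mafs can occupy a site without activating it. Only mRNA was measured, and most of this control acts on the proteins.

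In WT cells all 7 genes were called higher with CFZ at 6 h and again at 24 h, where 35.6% and 43.2% of the 11762 genes tested were called higher and 36.2% and 40.5% lower. In Nrf1-KO cells 6 of the 7 were called higher at each time, against 34.5% and 44.4% of all genes, and the exception was Keap1, which fell (35% and 41.1% of all genes were called lower). The call of Nfe2l1 at 24 h was lost with upper-quartile scaling and with library totals alone. A gene was called at an adjusted p under 0.05 in edgeR's quasi-likelihood test with Benjamini-Hochberg adjustment over all genes tested. All 7 members passed the filter on low counts.

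The 18 libraries held between 8333148 and 23917081 counts (median 14419832), and the members' own counts ran from 62 to 9358. Levels are given as TMM-scaled CPM, in which each library's counts are brought to a common total, and values per kilobase (kb) of exon are used wherever one gene is set against another. The fibroblast marker genes were all present (9 of 9), with a summed level of 33020 to 35900 CPM in WT DMSO, 28260 to 30710 in WT at 6 h, 8224 to 8509 in WT at 24 h, 27620 to 33910 in Nrf1-KO DMSO, 28750 to 32460 in Nrf1-KO at 6 h and 11080 to 13150 in Nrf1-KO at 24 h. The sum is carried by abundant matrix genes such as Col1a1, at 7613 CPM in WT DMSO and 873 CPM at 24 h, and 5834 and 807 CPM in Nrf1-KO. Not every marker moved with it, since Vim went from 3738 to 1557 CPM in WT but stood at 3398 and 3451 CPM in Nrf1-KO, and Pdgfra went from 209 to 130.4 CPM in WT and from 264 to 284 CPM in Nrf1-KO. The part of these shifts in the results below was not tested. Summed epithelial markers (4 of 4 in the table) reached at most 13.03 CPM, leukocyte markers (2 of 3) at most 5.77 CPM and endothelial markers (2 of 2) at most 3.83 CPM. Within these low values Cdh1 went from 6.12 to 0.556 CPM in WT and from 11.6 to 0.397 CPM in Nrf1-KO between DMSO and 24 h, while Cd68 went from 0.698 to 3.21 and from 0.776 to 4.48 CPM and Cdh5 from 0.226 to 2.96 and from 0.181 to 3.40 CPM. The epithelial genes Epcam and Krt18 were at 0 throughout, and the leukocyte gene Ptprc was at 0 in every WT library and between 0.719 and 1.33 CPM in the Nrf1-KO libraries. In bulk RNA, fewer cells that express a gene and less RNA per cell cannot be told apart.

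Of the promoters of these genes, some hold the core of an ARE, and these stretches are shown as examples of the letters that CNC factors and small Mafs are known to bind. RefSeq (GRCm38.p6) gives 13 promoters for the 7 genes, each running from 250 bases before the start of transcription to 50 after it. The letters TGACNNNGC, searched on both strands, were present in 4 of the 13, belonging to Nfe2l2, Mafk, Mafg and Maff, compared with 12.4% of all 32851 promoters. Counted by gene, this is 4 of 7 members against 14% of 27025 genes. Each line below reads 5′ to 3′ on the gene's own strand, and capitals mark the match. A match describes the letters and does not show a bound factor. Distances are from the RefSeq start. GENCODE M21, another annotation, places the start of Mafk at 139791513, before its match at 139791523 to 139791531.

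Nfe2l2 (chr2:75704875-75704913, minus strand, match starting 240 bases before the start): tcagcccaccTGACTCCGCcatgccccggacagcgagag

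Mafk (chr5:139791503-139791535, plus strand, match starting 13 bases before the start, on the opposite strand): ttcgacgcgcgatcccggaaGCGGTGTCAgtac

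Mafg (chr11:120633741-120633789, minus strand, match starting 222 bases before the start, on the opposite strand): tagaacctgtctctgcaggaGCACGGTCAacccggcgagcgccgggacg

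Maff (chr15:79346489-79346537, plus strand, match starting 112 bases before the start): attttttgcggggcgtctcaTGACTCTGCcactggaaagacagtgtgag

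The promoters of Nfe2l1, Bach1 and Keap1 held no such match. Nfe2l1 and Bach1 were called higher with CFZ in both lines, as were the 4 genes with a match. The call of Nfe2l1 in Nrf1-KO at 24 h was lost with upper-quartile scaling and with library totals alone. Any link between a match and the response to CFZ was not tested. The letters TGACTCA, an AP-1 site, were in none of the 13 promoters and in 5.2% of all. For TGATGNAA, a CEBP-ATF site, the share of all promoters was 3.97%, and for the heat shock motif GAANNTTC it was 7.86%, with no match in the members for either. With no match of these motifs in the members, none could overlap an ARE match.

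Nfe2l1, the gene disrupted in the knockout line, lies on the minus strand of chromosome 11 (GRCm38, GENCODE M21, 96817414 to 96829968). In WT cells it stood at 457, 437 and 449 CPM in DMSO, 650.4, 648 and 628 CPM at 6 h, and 559, 555 and 580.0 CPM at 24 h. In Nrf1-KO cells the libraries read 174, 185 and 181 CPM in DMSO, 414, 416 and 427 CPM at 6 h, and 209.5, 202 and 201 CPM at 24 h. All Nrf1-KO libraries lay below all WT libraries, and the 6 groups did not overlap each other. The mRNA was therefore still counted in the knockout line, at a log2 difference from WT of -1.31 in DMSO (SE 0.0338, adjusted p = 1.6e-24), -0.62 at 6 h and -1.47 at 24 h. The edited site being unknown, counts over the whole gene do not show what protein remains. The response to CFZ at 6 h was the larger in Nrf1-KO, since the log2 fold change at 6 h was 0.52 in WT (SE 0.0324) and 1.22 in Nrf1-KO (SE 0.0343), a difference in response of 0.70 (SE 0.0469, adjusted p = 1.6e-13). From 6 h to 24 h Nfe2l1 fell by 0.18 on the log2 scale in WT and by 1.03 in Nrf1-KO. At 24 h WT cells were still 0.34 above DMSO, while the Nrf1-KO value of 0.18 (adjusted p = 1.6e-05) became -0.0009 (adjusted p = 0.98) when libraries were scaled by their totals alone and 0.07 (adjusted p = 0.054) with upper-quartile scaling.

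Nfe2l2, the activator of antioxidant and detoxification genes that Keap1 restrains, lies on the minus strand of chromosome 2 (75675513 to 75704641). WT libraries read 82.2, 85.2 and 85.3 CPM in DMSO, 146, 139 and 143 CPM at 6 h, and 144, 153 and 147 CPM at 24 h. Nrf1-KO libraries read 108, 109.5 and 111 CPM in DMSO, 166.5, 171 and 169 CPM at 6 h, and 154.9, 155.0 and 147 CPM at 24 h. Every CFZ library of either line lay above every DMSO library, and the ranges of the 24 h groups of the lines overlapped. The log2 fold change was 0.76 at 6 h and 0.82 at 24 h in WT (SE 0.0362 and 0.0360), and 0.62 and 0.48 in Nrf1-KO (SE 0.0351 and 0.0343). Nfe2l2 was thus higher in Nrf1-KO than in WT by 0.38 in DMSO (adjusted p = 1.7e-10) and 0.24 at 6 h (adjusted p = 5.2e-07). At 24 h the difference of 0.04 was not called (95% interval -0.03 to 0.11, adjusted p = 0.28), but it was 0.08 and called with upper-quartile scaling (adjusted p = 0.029) and without Nrf1-KO 24 h replicate 3 (adjusted p = 0.044). Among the 7 genes this one moved least over the experiment, its highest group mean being 2.01 times its lowest.

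Bach1, the repressor of the family, lies on the plus strand of chromosome 16 (87698945 to 87733346). It stood at 31.9, 32.0 and 33.1 CPM in WT DMSO, 75.0, 70.4 and 73.6 CPM at 6 h, and 71.9, 67.0 and 72.3 CPM at 24 h. In Nrf1-KO cells the values were 44.9, 46.6 and 44.5 CPM in DMSO, 68.4, 65.4 and 61.4 CPM at 6 h, and 122, 121 and 119 CPM at 24 h. The Nrf1-KO libraries at 24 h stood above all others, and in WT the ranges of 6 h and 24 h overlapped. In WT the rise was 1.18 on the log2 scale at 6 h and 1.12 at 24 h (SE 0.0475 and 0.0476), and the change between these times was not called (-0.06, 95% interval -0.14 to 0.03, adjusted p = 0.26), although it was -0.12 and called without WT 6 h replicate 2 (adjusted p = 0.032). Nrf1-KO cells rose by 0.53 at 6 h and by 1.42 at 24 h (SE 0.0465 and 0.0412), so that the response was smaller than in WT at 6 h (difference -0.64, adjusted p = 2.5e-09) but exceeded it at 24 h (0.30, adjusted p = 0.00019). The difference between the lines accordingly went from 0.49 in DMSO to -0.16 at 6 h (adjusted p = 0.0034, but 0.09 with library totals alone) and 0.78 at 24 h.

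Maff, the small Maf with the lowest level in DMSO, lies on the plus strand of chromosome 15 (79346621 to 79359076). WT libraries read 3.35, 4.67 and 4.11 CPM in DMSO, 21.1, 20.2 and 23.1 CPM at 6 h, and 42.2, 40.2 and 42.9 CPM at 24 h. In Nrf1-KO cells they read 7.62, 7.70 and 9.02 CPM in DMSO, 21.3, 21.7 and 23.9 CPM at 6 h, and 52.5, 52.9 and 57.2 CPM at 24 h. The lines overlapped at 6 h and were apart in DMSO and at 24 h, with Nrf1-KO the higher. Maff had the largest response of the 7 genes, where WT gave log2 fold changes of 2.42 (6 h) and 3.38 (24 h; SE 0.104 and 0.0899, 10.4-fold for the latter), and Nrf1-KO gave 1.42 and 2.71 (SE 0.0894 and 0.0710, 6.56-fold for the latter). Because Nrf1-KO cells started 1.04 higher in DMSO (SE 0.121, adjusted p = 1.1e-08), the smaller response ended at a level not called different at 6 h (difference 0.04, 95% interval -0.12 to 0.20, adjusted p = 0.66) and called higher at 24 h (0.38, adjusted p = 3.8e-07). Without WT 6 h replicate 2 the difference at 6 h was -0.0065 (adjusted p = 0.96). The DMSO values rest on few reads, with 62 to 79 counts per WT library.

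Mafg, on the minus strand of chromosome 11 (120625117 to 120633600), stood at 25.1, 25.6 and 25.4 CPM in WT DMSO, 81.5, 71.3 and 71.1 CPM at 6 h, and 99.0, 90.5 and 95.7 CPM at 24 h. Nrf1-KO libraries read 29.2, 29.1 and 28.0 CPM in DMSO, 54.2, 51.2 and 46.8 CPM at 6 h, and 90.9, 81.7 and 81.2 CPM at 24 h. At 6 h all Nrf1-KO libraries lay below all WT libraries, while at 24 h the ranges overlapped. The log2 fold change was 1.56 and 1.90 in WT at 6 h and 24 h (SE 0.0611 and 0.0589) and 0.84 and 1.56 in Nrf1-KO (SE 0.0643 and 0.0569). Mafg was the only small Maf that was called lower in Nrf1-KO than in WT with CFZ, with differences of -0.54 at 6 h (adjusted p = 1.5e-09) and, after 24 h, of -0.17 (adjusted p = 0.0037). In DMSO it was 0.18 higher (adjusted p = 0.028), which was not called without WT DMSO replicate 3 (adjusted p = 0.057) or without Nrf1-KO DMSO replicate 1 (0.064) or 2 (0.066). Of its exon bases 2.21% also belong to Sirt7 on the same strand, a gene with a level of 16.6 to 41.4 CPM, and how such reads were counted is not given in the sources used here.

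Mafk, on the plus strand of chromosome 5 (139791513 to 139802653), stood at 24.6, 24.9 and 22.7 CPM in WT DMSO, 43.8, 43.5 and 44.4 CPM at 6 h, and 116, 112 and 108 CPM at 24 h. Nrf1-KO libraries read 30.9, 31.7 and 32.4 CPM in DMSO, 54.0, 51.7 and 54.7 CPM at 6 h, and 120.1, 119.9 and 122 CPM at 24 h. In both lines the groups stood apart in the order DMSO, 6 h, 24 h, and within each treatment the Nrf1-KO libraries lay above the WT libraries. Unlike Maff and Mafg in WT, most of its rise on the log2 scale came after 6 h, with log2 fold changes against DMSO of 0.86 and 2.21 in WT (SE 0.0513 and 0.0446) and 0.75 and 1.93 in Nrf1-KO (SE 0.0481 and 0.0412). The step from 6 h to 24 h was 1.35 in WT and 1.18 in Nrf1-KO. Mafk was the member whose response at 6 h was not called different between the lines (-0.12, 95% interval -0.26 to 0.03, adjusted p = 0.21). The difference between the lines was 0.40 in DMSO, 0.28 at 6 h and 0.11 at 24 h (adjusted p = 0.0057, and 0.059 without WT 24 h replicate 3). Of its exon bases 4.33% lie opposite Tmem184a, whose level was 2.43 to 6.68 CPM, and use of strand in the counting is not given in the sources used here.

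Keap1, the adaptor that marks Nfe2l2 for degradation, lies on the minus strand of chromosome 9 (21229730 to 21239361). WT libraries read 55.0, 55.4 and 53.4 CPM in DMSO, 94.9, 86.0 and 90.0 CPM at 6 h, and 81.0, 86.3 and 82.1 CPM at 24 h. Nrf1-KO libraries read 56.6, 53.9 and 55.7 CPM in DMSO, 45.2, 42.5 and 46.3 CPM at 6 h, and 28.2, 29.0 and 28.8 CPM at 24 h. The lines overlapped in DMSO, and with CFZ every WT library was above and every Nrf1-KO library below the DMSO libraries of both lines. In WT the log2 fold change was 0.72 at 6 h (SE 0.0428, adjusted p = 6.9e-16), and 24 h gave 0.61 (SE 0.0430, adjusted p = 2.3e-14). In Nrf1-KO it was -0.32 at 6 h (SE 0.0486, adjusted p = 1e-06), and 24 h gave -0.95 (SE 0.0493, adjusted p = 7.2e-18). The difference in response between the lines was -1.04 at 6 h (adjusted p = 2.1e-14), and by 24 h it had widened to -1.56 (adjusted p = 4.3e-19). Keap1 did not differ detectably in DMSO (0.02, 95% interval -0.07 to 0.11, adjusted p = 0.73) and was lower in Nrf1-KO by -1.02 at 6 h and -1.54 at 24 h, a level 2.90-fold below WT. Its small decline from 6 h to 24 h in WT (-0.12, adjusted p = 0.014) was not called with DESeq2 (adjusted p = 0.061), with library totals alone (0.055), or without WT 24 h replicate 1 (0.054) or 3 (0.058). Of its exon bases 10.9% lie opposite Gm16754, which was not analysed here.

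**Figure D1:**
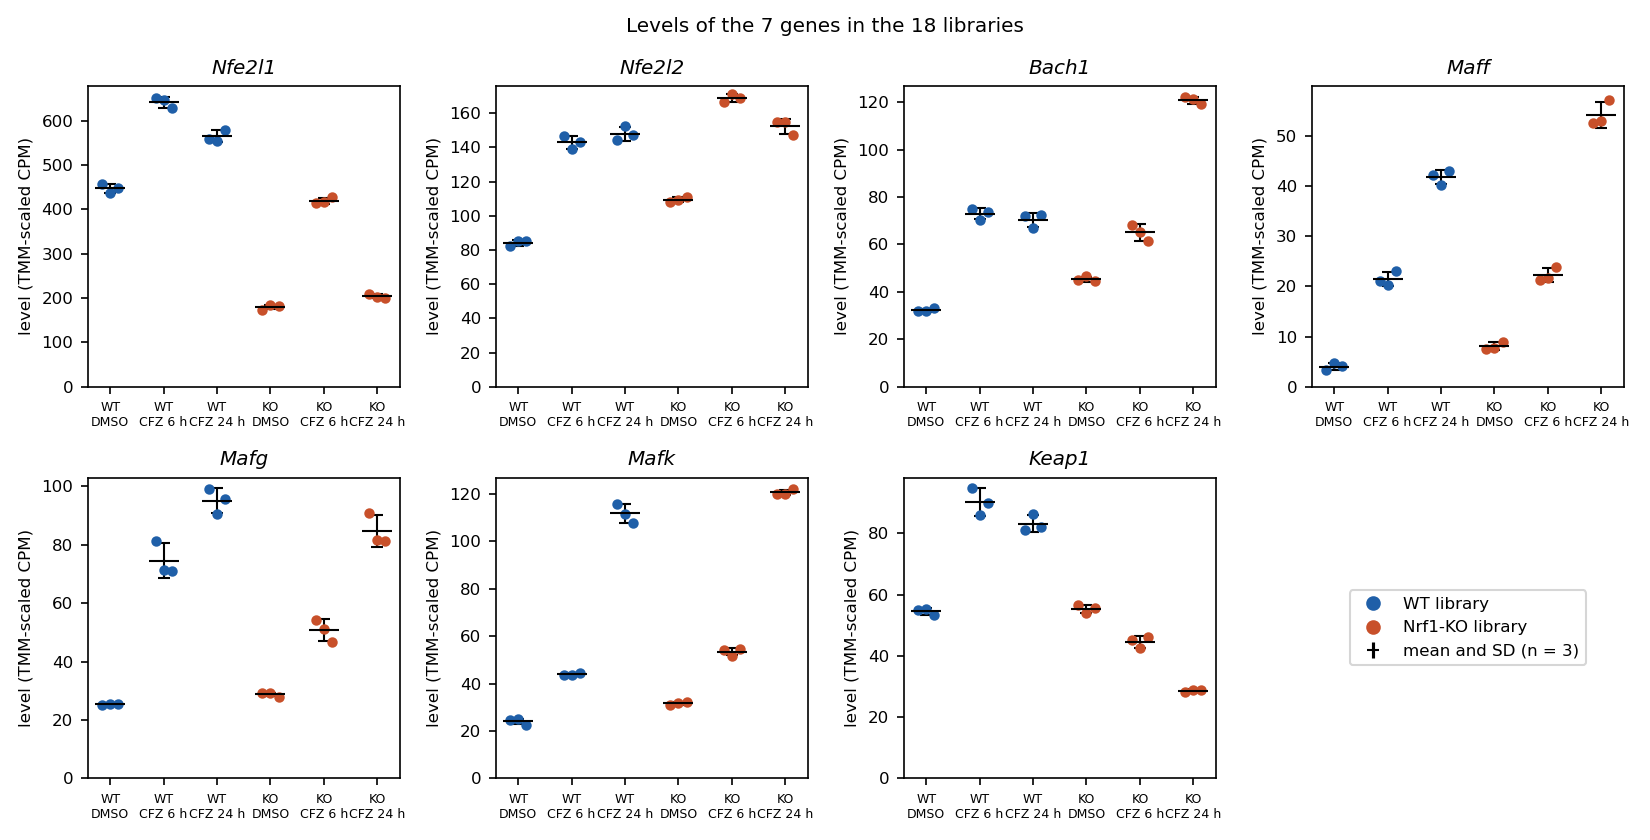
Level of each of the 7 genes (vertical axes, TMM-scaled CPM, each starting at 0) in the 6 groups (horizontal axes); points are libraries, bars are the mean and SD of 3 replicates, WT in blue and Nrf1-KO in orange. In all panels but that of Keap1 the CFZ groups lie above DMSO in both lines (Nfe2l1 in Nrf1-KO at 24 h not with library totals alone), while Keap1 climbs in WT to a mean of 90.3 CPM at 6 h and descends in Nrf1-KO to 28.7 CPM at 24 h.

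Ordered by mean level, the groups of Nfe2l1 and Mafk stood apart from each of their neighbours. No share over all genes was computed for overlaps, here or in the account of each gene, so they only describe these members. For Nfe2l2 the neighbours that overlapped were WT 6 h with WT 24 h and WT 24 h with Nrf1-KO 24 h. Bach1 had overlaps of Nrf1-KO 6 h with WT 24 h and of WT 24 h with WT 6 h, and Maff between the lines at 6 h. For Mafg, WT 6 h overlapped Nrf1-KO 24 h and this overlapped WT 24 h, and for Keap1 the overlaps were between the DMSO groups and between the CFZ groups of WT. The highest group mean was 13.4 times the lowest for Maff and 5.02 times for Mafk, and 3.15 to 3.75 times for Keap1, Nfe2l1, Bach1 and Mafg.

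CFZ in WT cells, which asks how the network's own genes respond to proteasome inhibition, gave called rises from 0.52 (Nfe2l1) to 2.42 (Maff) at 6 h, with a median over the members of 0.86 against -0.02 over all genes tested. At 24 h the called rises ran from 0.34 (Nfe2l1) to 3.38 (Maff) with a median of 1.12 against 0.02. From 6 h to 24 h the 3 small Mafs rose and Nfe2l1 and Keap1 fell, where 36.9% of all genes were called higher and 35.4% lower. The remaining members, Nfe2l2 and Bach1, were not called. Changes of at least 2-fold were reached by 3 members at 6 h (Bach1, Maff and Mafg), where 9.63% of all genes did so, by these and Mafk at 24 h (25%), and by Mafk between the times (12.1%). The direction of calls over all genes depends on scaling, and at 6 h in WT there were 4190 higher and 4262 lower, but 3274 and 5373 with upper-quartile scaling and 3087 and 5623 with library totals alone. These scalings moved the median gene by -0.11 and -0.13 at 6 h and by -0.14 and -0.11 at 24 h, less than the smallest member change of 0.34.

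In Nrf1-KO cells the same treatment gave rises of 0.53 (Bach1) to 1.42 (Maff) at 6 h and 0.18 (Nfe2l1, -0.0009 with library totals alone) to 2.71 (Maff) at 24 h, with Keap1 the only member called lower, where 35% and 41.1% of all genes were called lower. The member medians were 0.75 and 1.42 against -0.01 and 0.03 over all genes. From 6 h to 24 h Bach1 and the 3 small Mafs rose and Nfe2l1, Nfe2l2 (-0.15, adjusted p = 0.00027) and Keap1 fell, against 38.7% and 38.3% of all genes. At least 2-fold changes were reached by 2 members at 6 h (Nfe2l1 and Maff; 7.56% of all genes), by 4 at 24 h (Bach1 and the small Mafs; 26.7%) and by 3 between the times (Maff, Mafk and, downward, Nfe2l1; 15.8%). With library totals alone the median gene moved by -0.11 at 6 h and -0.18 at 24 h, and the split of 4057 higher and 4114 lower at 6 h became 3036 and 5298, and that of 5226 and 4829 at 24 h became 4175 and 5857.

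The test of the difference in response between the lines called 6 of the 7 members at 6 h (38.3% of all genes), 5 of them with the smaller or opposite response in Nrf1-KO, where 18.4% of all genes were called in that direction and 19.8% in the other. Nfe2l1 alone had the larger response in Nrf1-KO. At 24 h all 7 were called (59.8% of all genes), 6 of them lower in Nrf1-KO (30% of all genes) and Bach1 higher (29.7%). Nfe2l2 differed by -0.14 at 6 h (adjusted p = 0.028, but 0.062 with DESeq2, 0.096 with upper-quartile scaling and 0.07 with library totals alone, and 0.065 without Nrf1-KO DMSO replicate 3 or 0.069 without Nrf1-KO 6 h replicate 1) and by -0.34 at 24 h (adjusted p = 6.4e-07). Between 6 h and 24 h, Bach1, Maff and Mafg gained in Nrf1-KO relative to WT (20.7% of all genes) and Nfe2l1, Nfe2l2, Mafk and Keap1 lost (22.2%), Mafk with an adjusted p of 0.023 that was 0.07 with DESeq2. A difference of at least 2-fold was reached by Maff and Keap1 at 6 h (2.78% of all genes), by Keap1 at 24 h (8.6%), and between the times by no member (4.18%), the largest being that of Bach1. With library totals alone this split over all genes was 1610 higher and 3738 lower in place of 2438 and 2616.

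**Figure D2:**
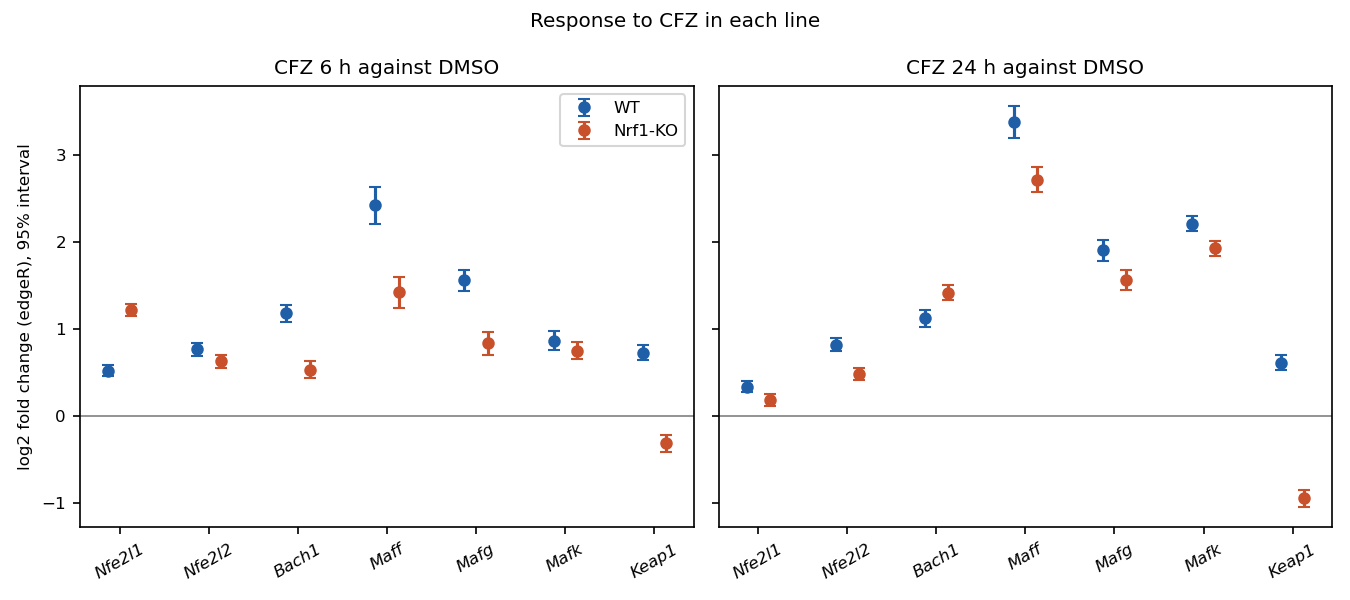
Log2 fold change against DMSO (vertical axis, edgeR estimate with its 95% interval) for the 7 genes at 6 h (left) and 24 h (right), WT in blue and Nrf1-KO in orange. Keap1 sits above 0 in WT (0.72 and 0.61) and below 0 in Nrf1-KO (-0.32 and -0.95), and Maff shows the largest values in both lines.

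Between the lines, which asks what differs in the network without Nrf1, 5 members were higher in Nrf1-KO cells in DMSO (25.7% of all genes were called higher) and 1, Nfe2l1, lower (29.1%). At 6 h of CFZ 2 were higher, Nfe2l2 and Mafk (30.5%), and 4 lower, Nfe2l1, Keap1, Mafg and Bach1 (30.8%). At 24 h 3 were higher, Bach1, Maff and Mafk (35.6%), and 3 lower, Nfe2l1, Keap1 and Mafg (36.4%). The differences of at least 2-fold were those of Nfe2l1 and Maff in DMSO (4.97% of all genes), Keap1 at 6 h (7.31%), and Nfe2l1 and Keap1 at 24 h (12.2%). That of Maff was 1.04, and 0.92 to 1.16 with single libraries left out. With library totals alone the split over all genes changed from 3017 higher and 3419 lower to 3635 and 2663 in DMSO, and from 3593 and 3621 to 4384 and 2829 at 6 h.

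**Figure D3:**
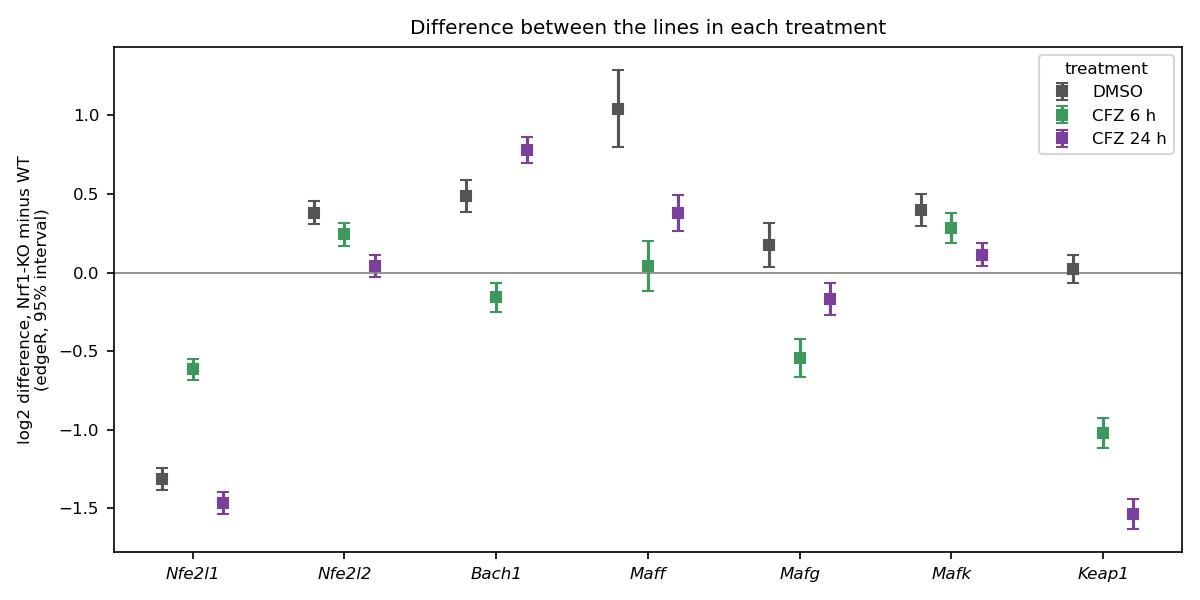
Log2 difference between Nrf1-KO and WT (vertical axis, edgeR estimate with its 95% interval, above 0 where Nrf1-KO is higher) for the 7 genes in DMSO, CFZ 6 h and CFZ 24 h. Nfe2l1 is below 0 in all treatments, Keap1 moves from 0.02 to -1.54, and Bach1 changes side from 0.49 to -0.16 and back to 0.78.

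Since any CNC factor must share the small Mafs, their levels per kb of exon were summed within each library. In WT the sum was 12.1, 12.7 and 11.9 CPM per kb in DMSO, 33.9, 31.7 and 32.9 at 6 h, and 63.6, 60.3 and 61.2 at 24 h. In Nrf1-KO it was 16.0, 16.3 and 16.8 in DMSO, 31.7, 30.8 and 31.6 at 6 h, and 67.2, 65.7 and 67.8 at 24 h. The groups of one line did not overlap, and between the lines every Nrf1-KO sum lay above every WT sum in DMSO and at 24 h, while the ranges overlapped at 6 h. The makeup of the sum changed as well. Maff went from 12.7% ± 1.78 (SD, n = 3) in WT DMSO to 26.1% ± 0.786 at 24 h and from 19.1% ± 1.42 to 31.2% ± 1.22 in Nrf1-KO, while Mafg went from 37.0% ± 1.06 to 27.5% ± 0.589 in WT and from 31.3% ± 1.38 to 22.5% ± 1.42 in Nrf1-KO. Mafg held the largest share in WT at 6 h (40.5% ± 2.22) and Mafk in the other 5 groups, with 43.7% to 50.3%.

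**Figure D4:**
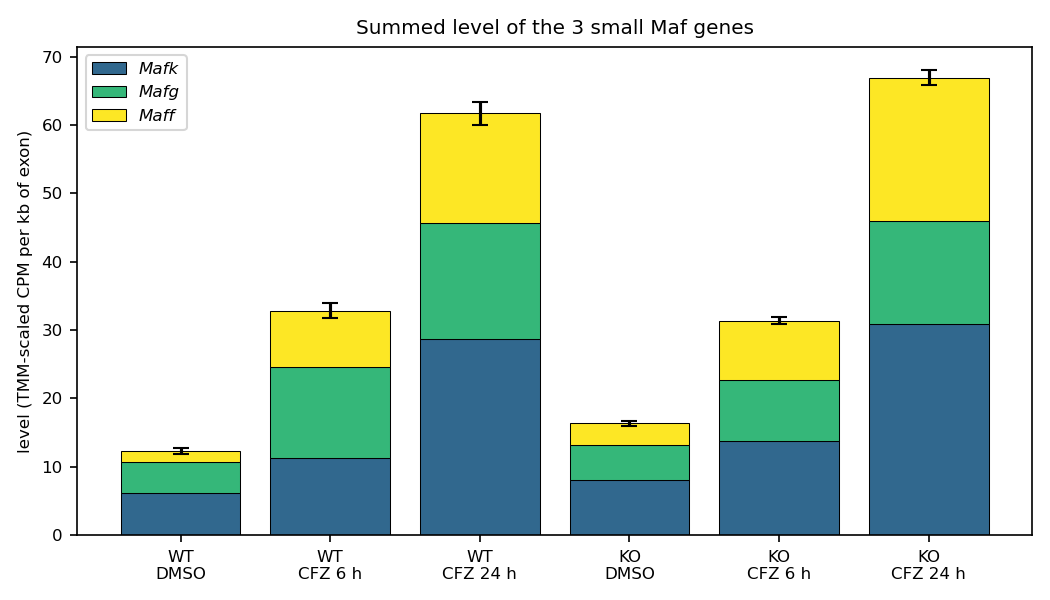
Summed level of Mafk, Mafg and Maff (stacked bars, TMM-scaled CPM per kb of exon, group means) with the SD of the sum over 3 replicates, for the 6 groups. The sum climbs from 12.2 to 61.7 in WT and from 16.4 to 66.9 in Nrf1-KO, and the Maff part grows in both lines.

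Per kb of exon, Nfe2l1 was the most abundant of the 7 mRNAs in 5 of the 6 groups, at 82.3 CPM per kb in WT DMSO and 118 at 6 h. In Nrf1-KO cells at 24 h Nfe2l2 stood above it, with 40.2 ± 1.15 against 37.6 ± 0.816 CPM per kb (SD, n = 3). With the length of the longest coding transcript in place of all exon bases, Nfe2l2 was also the higher of the pair in Nrf1-KO DMSO. Keap1 went from the third place in WT DMSO, at 11.6 CPM per kb, to last in Nrf1-KO at 24 h, at 6.11, with either length.

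Ratios within a library do not depend on its scaling, but they do depend on the gene lengths used, here all exon bases. They are given as a description with no test. Nfe2l2 mRNA per kb was 1.85, 1.90 and 1.98 times that of Keap1 in WT DMSO, 1.91, 1.998 and 1.97 times at 6 h, and 2.20, 2.19 and 2.21 times at 24 h. In Nrf1-KO cells the ratios were 2.36, 2.51 and 2.46 in DMSO, 4.55, 4.99 and 4.52 at 6 h, and 6.78, 6.61 and 6.33 at 24 h. In WT the ratios of DMSO and 6 h overlapped and those of 24 h lay above both. In Nrf1-KO the groups were far apart. The ratio of Bach1 to Nfe2l2 lay between 0.223 and 0.316 in 5 groups and reached 0.481 to 0.497 in Nrf1-KO at 24 h. That of Nfe2l1 to Nfe2l2 fell from a mean of 3.71 in WT DMSO to 2.67 at 24 h. In Nrf1-KO it was 1.15 in DMSO, 1.73 at 6 h and 0.936 at 24 h. With the length of the longest coding transcript, this ratio was 0.87 in Nrf1-KO DMSO. The mean ratio of Nfe2l2 to Keap1 was then 2.25 in WT DMSO and 7.76 in Nrf1-KO at 24 h.

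**Figure D5:**
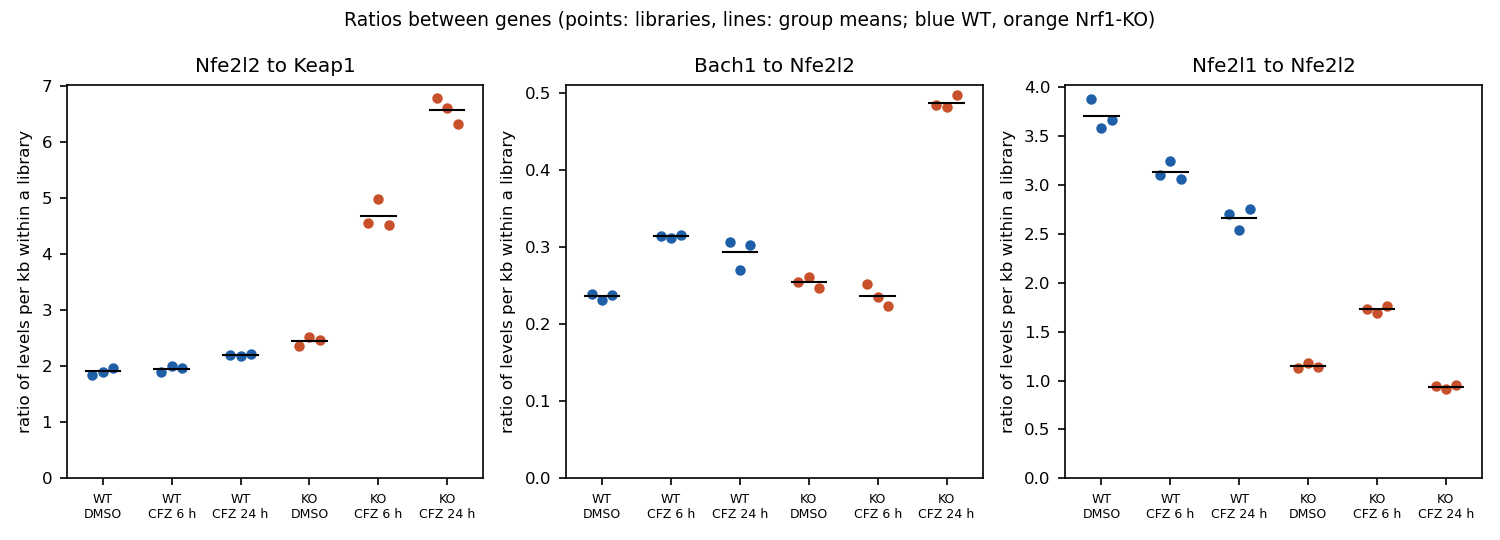
Ratios of levels per kb of exon within each library (vertical axes, starting at 0) for Nfe2l2 to Keap1, Bach1 to Nfe2l2 and Nfe2l1 to Nfe2l2 in the 6 groups; points are libraries and lines are group means, WT in blue and Nrf1-KO in orange. The ratio of Nfe2l2 to Keap1 lies between 1.85 and 2.21 in WT, highest at 24 h, and reaches 6.33 to 6.78 in Nrf1-KO at 24 h.

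Other genes of these families were low. Nfe2 had at most 1 count in any library, Nfe2l3 and the large Maf Nrl had 0, and the large Maf Mafa at most 11, so that these did not pass the filter. Bach2, a repressor related to Bach1, had group means of 5.65, 7.20 and 10.2 CPM in WT (DMSO, 6 h and 24 h) and 4.05, 3.66 and 6.19 CPM in Nrf1-KO. It was lower in Nrf1-KO at each point, by -0.48 in DMSO (adjusted p = 0.0029), -0.94 at 6 h and -0.73 at 24 h, and so went against Bach1 in DMSO and at 24 h. Maf, a large Maf that was tested, fell with CFZ in WT from 4.07 to 1.69 CPM at 6 h (log2 fold change -1.27) and 2.30 CPM at 24 h (-0.88). In Nrf1-KO it started at 2.56 CPM and fell by 0.47 on the log2 scale at 6 h (adjusted p = 0.042), while its 24 h value of -0.11 was not called (adjusted p = 0.59). The difference in response was 0.80 at 6 h (adjusted p = 0.021) and 0.78 by 24 h (adjusted p = 0.0057).

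A list of 20 genes covers regulators of the turnover and processing of CNC factors. Among them are genes of ubiquitin ligases, extraction from the membrane, deglycosylation and cleavage. In WT at 24 h 13 of the 20 were called higher and 3 lower, with a median of 0.27. Over all genes 43.2% were called higher and 40.5% lower, with a median of 0.02. Sqstm1, the autophagy receptor that sequesters Keap1, rose from 511 ± 11.4 to 3614 ± 83.7 CPM (SD, n = 3; log2 fold change 2.82), and Syvn1, a ubiquitin ligase of the endoplasmic reticulum, by 1.21. The largest falls were those of Ngly1, the deglycosylase that Nfe2l1 needs for its activity, at -0.90, and Fbxl17, a ligase subunit that acts on BTB proteins such as Keap1 and Bach1, at -0.58. In the difference between the lines (Nrf1-KO minus WT) at 24 h, 7 of the 20 were called above 0 and 8 below, against 29.7% and 30% of all genes. Ngly1 fell further in Nrf1-KO, from 23.1 ± 0.516 to 6.05 ± 1.65 CPM against 29.9 ± 1.22 to 15.8 ± 1.75 CPM in WT (difference -1.05, adjusted p = 2.4e-07). Vcp, the ATPase that extracts Nfe2l1 from the membrane, rose by 1.17 in WT and 0.45 in Nrf1-KO (difference -0.72, adjusted p = 5.8e-13), while Fbxw11 (0.47) and Fbxl17 (0.37) differed in the other direction.

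Among 26 genes commonly driven from AREs, 22 were called higher and 2 lower in WT at 6 h, with a median of 0.86, where 35.6% of all genes were higher and 36.2% lower with a median of -0.02. Later, at 24 h, the list had 18 higher and 6 lower, with a median of 1.30, against 43.2%, 40.5% and 0.02. In Nrf1-KO 17 were higher and 5 lower at 6 h (median 0.35), against 34.5% and 35% of all genes (median -0.01). By 24 h 21 were higher and 4 lower (median 1.23), against 44.4% and 41.1% (median 0.03). At 24 h in WT the largest rises were those of Hmox1, heme oxygenase (4.43), and Osgin1 (3.51), and the largest falls those of Ephx1 (-0.90) and Gstm1 (-0.69), which encode enzymes of xenobiotic metabolism. The lines differed in the response of 19 of the 26 at 24 h, where 59.8% of all genes were called, with 9 differences above 0 and 10 below (29.7% and 30% of all genes). Slc7a11, the cystine transporter, went from 59.0 to 229 CPM in WT and from 33.4 to 380.4 CPM in Nrf1-KO (difference in response 1.54, adjusted p = 1.6e-16). Nqo1, a quinone reductase, stood at 113, 169 and 78.1 CPM in WT (DMSO, 6 h and 24 h) and at 95.9, 139 and 137 CPM in Nrf1-KO. It was thus above DMSO at 6 h in both lines and below it at 24 h in WT alone (difference in response at 24 h 1.05, adjusted p = 7.3e-17). In contrast, Gsr, glutathione reductase, reached 246 CPM in WT and 103 CPM in Nrf1-KO from 84.9 and 72.5 CPM (difference -1.04, adjusted p = 2.2e-15), and Blvrb, biliverdin reductase, followed with a difference of -0.98.

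Over the 18 libraries the log2 levels of Nfe2l2, Bach1, Maff, Mafg and Mafk went together, with Pearson's r of 0.75 to 0.95 between pairs. Keap1 correlated with Nfe2l1 at 0.72 and with the other members at -0.33 to 0.10. These values describe 6 groups that share their treatments, and carry no test. They span both lines, and Nfe2l1 is the gene disrupted in Nrf1-KO. The share of the line in these correlations was not tested. The genes most like each member by the same measure were Ap3d1 (0.98), Supt20 (0.97) and Ints6 (0.96) for Nfe2l1, Hspa4l (0.98), Coq10b (0.98) and Lacc1 (0.97) for Nfe2l2, and Nop2 (0.98), Rnf4 (0.98) and Ythdc1 (0.98) for Bach1. For the small Mafs they were Plaur, Dph2 and Atp13a3 (0.98 to 0.99) for Maff, Pip5k1a, Ddx27 and Zfp142 (0.98 to 0.99) for Mafg, and Ppp1r10, Anapc7 and Micall1 (all 0.99) for Mafk. Keap1 was most like Fto (0.98), Acadvl (0.98) and 9530068E07Rik (0.97).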

How the data were processed

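Poly(A) RNA of 18 libraries from NIH-3T3 cells was prepared with a stranded kit and sequenced as paired reads of 125 bases. The authors aligned reads with STAR in the RNA Express application and deposited raw counts per gene symbol. Versions, genome build, annotation and use of strand are not given in the sources used here.

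Genes passing edgeR's expression filter (minimum count 10, minimum total 15) were fitted together over the 6 groups (edgeR 4.0.16, R 4.3.3, TMM scaling, quasi-likelihood test, Benjamini-Hochberg adjustment over 11762 genes, threshold 0.05). No covariate was used. The 12 comparisons were CFZ against DMSO and 24 h against 6 h in each line, Nrf1-KO against WT in each treatment, and their interactions (Nrf1-KO minus WT). Levels are TMM-scaled CPM with the SD of 3 replicates. The p-values judge a difference against the spread between replicate cultures, estimated over all 6 groups together. Per-kb values used GENCODE M21 exon lengths. The fitting code was tested on simulated data. Total counts of 8333148 to 23917081 per library and members' counts of 62 or more set the precision. In 4 gene rows the symbol was one that another row also carried.

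The text names all 7 members, related CNC and large Maf genes (1 of the list is not reported here), the 2 called genes with the most positive and the 2 with the most negative log2 fold change of the turnover and ARE lists (WT response and interaction at 24 h), and the 3 genes most correlated with each member. Members and lists were chosen with earlier results of these data known. Alternatives were DESeq2 1.42.0, other scalings, no filter, a minimum fold of 2, only the groups compared, a replicate block and leaving out each replicate. A different transcript length was added after seeing the data. Same-numbered replicates of different groups did not deviate together (mean r = 0.014 over 45 pairs, range -0.049 to 0.097), so the numbers were not taken as pairs.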

Additional observations from a re-analysis of the deposited data

Results flagged for a closer look

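A closer look is due where the response to CFZ differed between the lines, tested as the interaction of genotype and treatment (log2 difference in response, Nrf1-KO minus WT). For Keap1 the difference was -1.04 at 6 h, -1.56 at 24 h and -0.52 between the times, and the lines moved in opposite directions. Nfe2l1 had 0.70 at 6 h, -0.15 at 24 h and -0.85 between the times. Bach1 changed side, with -0.64 at 6 h, 0.30 at 24 h and 0.94 between them. Maff (-1.001, -0.66 and 0.34) and Mafg (-0.72, -0.34 and 0.38) had the smaller response in Nrf1-KO at both times and gained on WT from 6 h to 24 h. For Nfe2l2 the values were -0.14, -0.34 and -0.20. Mafk had -0.28 at 24 h and -0.17 between the times, the latter with an adjusted p of 0.023 that was 0.07 with DESeq2 and 0.13 without the expression filter. In DMSO the Nrf1-KO line was called different from WT for 6 of these 7 genes, Keap1 being the exception. Of all genes, 25.7% were called higher and 29.1% lower there. The call of Mafg was lost without WT DMSO replicate 3 (adjusted p = 0.057) or without Nrf1-KO DMSO replicate 1 (0.064) or 2 (0.066). A response is measured from the DMSO level.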

How the results depend on the processing

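Of 1218 repeats of the 84 member changes under other settings, 1184 kept direction and side of the threshold, 27 were no longer called, 4 became called and 3 reversed. The reversed values were Nfe2l1 in Nrf1-KO at 24 h with library totals alone (-0.0009), and, without WT 6 h replicate 2, Nfe2l2 from 6 h to 24 h in WT (-0.0051) and Maff between the lines at 6 h (-0.0065), the last 2 not called in either form and ranging from -0.0051 to 0.0685 and from -0.0065 to 0.087 over the single libraries left out. Nfe2l2 from 6 h to 24 h in WT was called with library totals alone (0.08, adjusted p = 0.049). The interaction of Mafk between 6 h and 24 h was called in the full fit and lost when any of 9 of the 12 libraries it compares was left out.

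Asking in addition for at least a 2-fold change left 3 members and 1133 of all genes in WT at 6 h, 4 and 2939 at 24 h, and 1 and 1421 between the times. In Nrf1-KO it left 2 and 889, 4 and 3137, and 3 and 1856. Between the lines it left 2 and 584 in DMSO, 1 and 860 at 6 h, and 2 and 1440 at 24 h. For the interactions it left 2 (Maff only just, at -1.001) and 327 at 6 h, and 1 and 1012 at 24 h. Between the times it left 0 and 492, where the largest member value was 0.94 (Bach1) and edgeR without a minimum fold called 7. The cause was the added limit itself. The 16 values of named list genes kept direction and side in all 256 repeats.

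A fit with a replicate block called as many members as the fit without in each comparison, and the pairing by number has no basis in the design. All genes called with the block were 8521, 9887 and 8607 in WT, 8228, 10091 and 9126 in Nrf1-KO, 6515, 7321 and 8529 between the lines, and 4650, 7140 and 5189 for the interactions.

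Limits: with 3 replicates of 1 edited and 1 unedited line, the spread is that of cultures. Each line's DMSO group was the control for both times, so CFZ and time in culture are not fully separated. The data are mRNA and relative to each library. Of 84 repeats of the 42 group levels under another scaling, 46 moved by at least 1 SD. Maff in DMSO rests on the fewest counts.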

Other observations

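At 6 h of CFZ the ARE genes were mostly lower in Nrf1-KO than in WT cells, 22 of 26 called lower and 3 higher with a median of -0.53 on the log2 scale, where 30.8% of all genes were called lower and 30.5% higher. At 24 h 15 were lower and 9 higher, with a median of -0.18, against 36.4% and 35.6% of all genes, so that the count of higher genes was near the background. From 6 h to 24 h the response of 21 of the 26 gained in Nrf1-KO relative to WT and that of 1 lost (median 0.41), where 20.7% of all genes were called in the first direction and 22.2% in the second. Of the members, Bach1, Maff and Mafg gained and Nfe2l1, Keap1, Nfe2l2 and Mafk lost. In DMSO 15 of the 26 were lower and 6 higher in Nrf1-KO (median -0.16), against 29.1% and 25.7% of all genes. The gene with the symbol Nrf1, nuclear respiratory factor 1, was at 32.4 CPM in WT DMSO and 33.6 CPM in Nrf1-KO DMSO, at 32.5 and 39.2 CPM at 6 h (log2 difference 0.27, adjusted p = 5.8e-05) and at 15.2 and 22.6 CPM at 24 h (0.58, adjusted p = 1.5e-09).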
